A study of Mus musculus with 6 samples.

Results

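The Notch pathway was described by 10 genes in cerebellar endothelial cells, namely the ligands Dll4, Dll1, Jag1 and Jag2, the receptors Notch1 and Notch4, and the target genes Hey1, Hey2, Hes1 and Nrarp. Members were all probe sets that the platform annotation assigned to 1 of these symbols alone, which gave 18 of the 45037 probe sets tested and 10 of 18193 named genes. The cells came from mouse cerebellum at postnatal day 16 and were captured on magnetic beads with antibody to PECAM, a protein on the endothelial surface. The 3 Fz4-null preparations carried Fz4-/-, the loss of the receptor Frizzled4, and the 3 wild-type preparations did not. Both genotypes were of mixed sex on a mixed C57Bl6/129 background. Each preparation was read on 1 Affymetrix 3′ array, and the deposited values are log2 RMA expression, in which a difference of 1 is a 2-fold difference. The labels name neither the deleted part of Fzd4 nor the number of animals in a preparation, so a p-value speaks for the spread between preparations, which may be technical. The comparison asked how the endothelial transcriptome stands after a lasting loss of Frizzled4 signalling.

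Notch receptors are cell-surface proteins that are cut when a ligand on a neighbouring cell binds them. The freed intracellular part enters the nucleus, joins the DNA-binding protein RBPJ and switches on Hes and Hey genes, which encode repressors, and Nrarp, which encodes a feedback inhibitor. In growing vessels Dll4 on the leading tip cell restrains sprouting of its neighbours through Notch1, while Jag1 can oppose that signal. The same pathway promotes arterial identity, and in brain vessels it acts beside Wnt and Norrin signalling through Frizzled4.

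Promoter sequences are shown for the target genes Hey2 and Nrarp, because target genes read out the pathway and RBPJ acts on them at DNA. The sequences are from RefSeq (build GRCm38.p6), whose promoter table matched 8 of the 10 members and held no entry for Hes1 or Hey1. Each stretch runs 5′ to 3′ on the gene's strand over 250 bases before the start and the first 3 bases of the transcript. Hey2 lies at chr10:30842781-30843033 on the minus strand and Nrarp at chr2:25180508-25180760 on the plus strand. Capitals mark 3 motifs searched on both strands. The first is TGGGAA, the core that RBPJ is known to bind, which reads TTCCCA on the opposite strand. The second is CACGTG, which reads the same on both strands, and the third is CACGCG, and Hes and Hey proteins are known to bind such letters.
Hey2: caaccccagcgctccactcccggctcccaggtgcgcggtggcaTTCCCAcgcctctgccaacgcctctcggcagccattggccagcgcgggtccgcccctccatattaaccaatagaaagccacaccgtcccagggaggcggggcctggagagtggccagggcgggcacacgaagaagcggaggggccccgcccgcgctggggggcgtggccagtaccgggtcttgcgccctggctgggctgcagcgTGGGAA
Nrarp: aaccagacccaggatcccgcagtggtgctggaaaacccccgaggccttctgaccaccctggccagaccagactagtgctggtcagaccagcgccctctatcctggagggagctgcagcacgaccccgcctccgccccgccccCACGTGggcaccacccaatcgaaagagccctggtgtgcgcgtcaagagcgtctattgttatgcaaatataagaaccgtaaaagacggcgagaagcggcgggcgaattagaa
The Hey2 stretch held 2 matches to the RBPJ core, whose first bases lie 207 and 3 bases before the start. The Nrarp stretch held 0 matches to it and 1 match to CACGTG, 108 bases before the start. Over the 300-base windows, TGGGAA on either strand occurred in 1 of 9 member promoters and in 25.6% of all 32851 promoters. The 9 member promoters cover 8 genes, with Dll1 entered more than 1 time, and Hey2 and Nrarp are the only target genes among them. CACGTG occurred in 1 of 9 member promoters and 7.15% of all, and CACGCG in 4 of 9 and 9.27% of all. No 2 of these motifs overlapped in the printed stretches. A match is a description of the letters, and binding was not measured here.

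No Notch ligand, receptor or target was called different between Fz4-null and wild-type endothelial cells. By limma with Benjamini-Hochberg adjustment over all probe sets, 0 of 18 member probe sets passed an adjusted p of 0.05, where 0.0111% of all probe sets (5 of 45037) passed. At an unadjusted p under 0.05 the count was also 0 of 18, against 4.46% of all probe sets. The lowest unadjusted limma p among the members was 0.0762, for Dll4, and every adjusted p was 1.00. In 0 of 18 probe sets did the 3 null arrays lie wholly above or below the 3 wild-type arrays, against 9.27% of all probe sets. The median difference (Fz4-null minus wild type) was 0.05 over the 18 probe sets and -0.01 over all probe sets. With 1 probe set per gene, the one of highest mean, the median was -0.02 over the 10 genes, 5 higher and 5 lower, and 0.01 over all genes. The median size of the difference, sign aside, was 0.13 over the 10 genes and 0.17 over all genes. The 95% interval of the difference lay within 1 on the log2 scale in both directions for 14 of 18 probe sets, and reached beyond it for Dll1, Hey2, Hes1 and the dimmer Dll4 probe set.

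**Figure D1:**
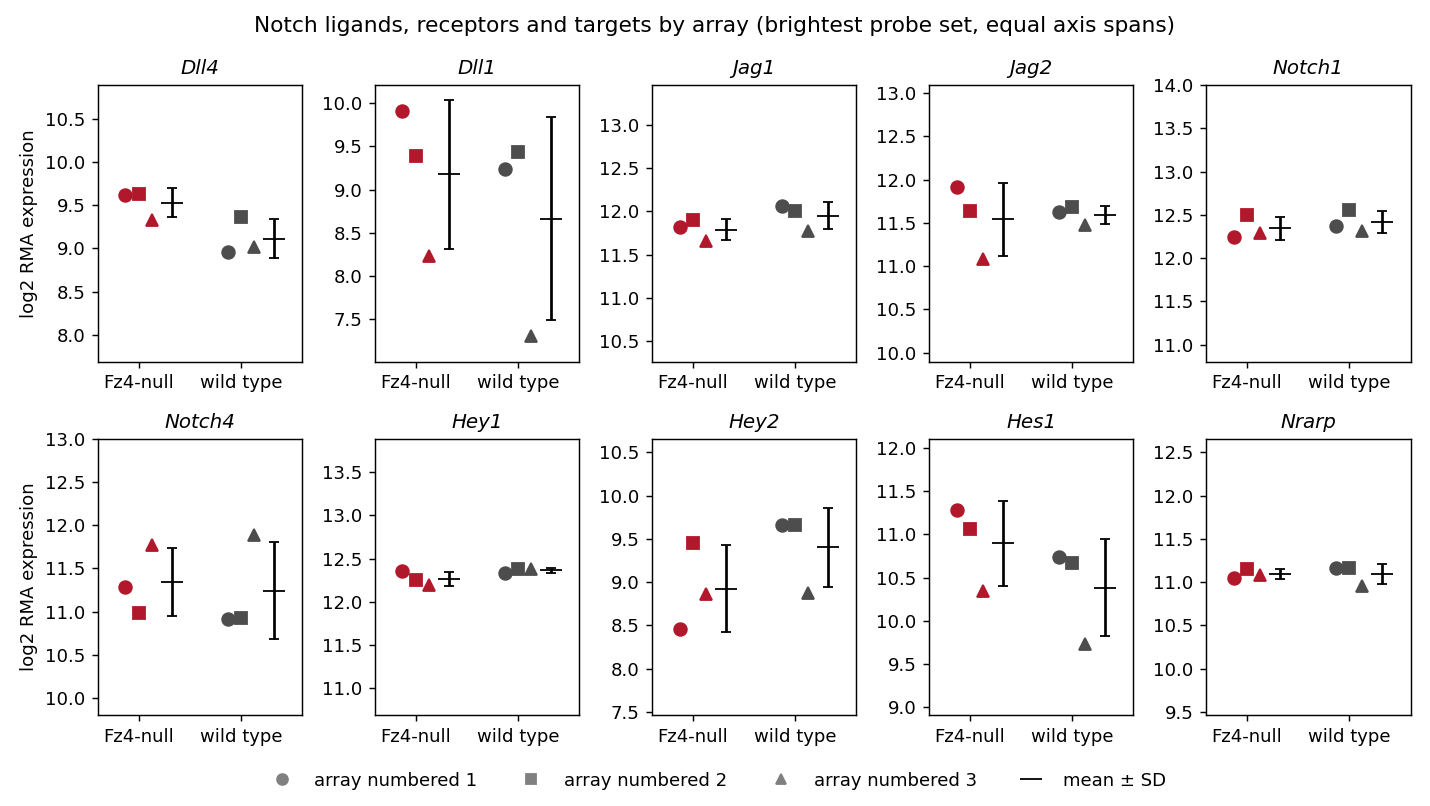
Log2 RMA expression of the 10 Notch genes (brightest probe set, vertical axis, each spanning the same range) on the 3 Fz4-null and 3 wild-type arrays; marker shapes give the replicate number, and bars give mean ± SD (n = 3). The genotypes overlap in every panel, and for Dll1 and Hes1 the arrays numbered 3 are the lowest of both genotypes.

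**Figure D2:**
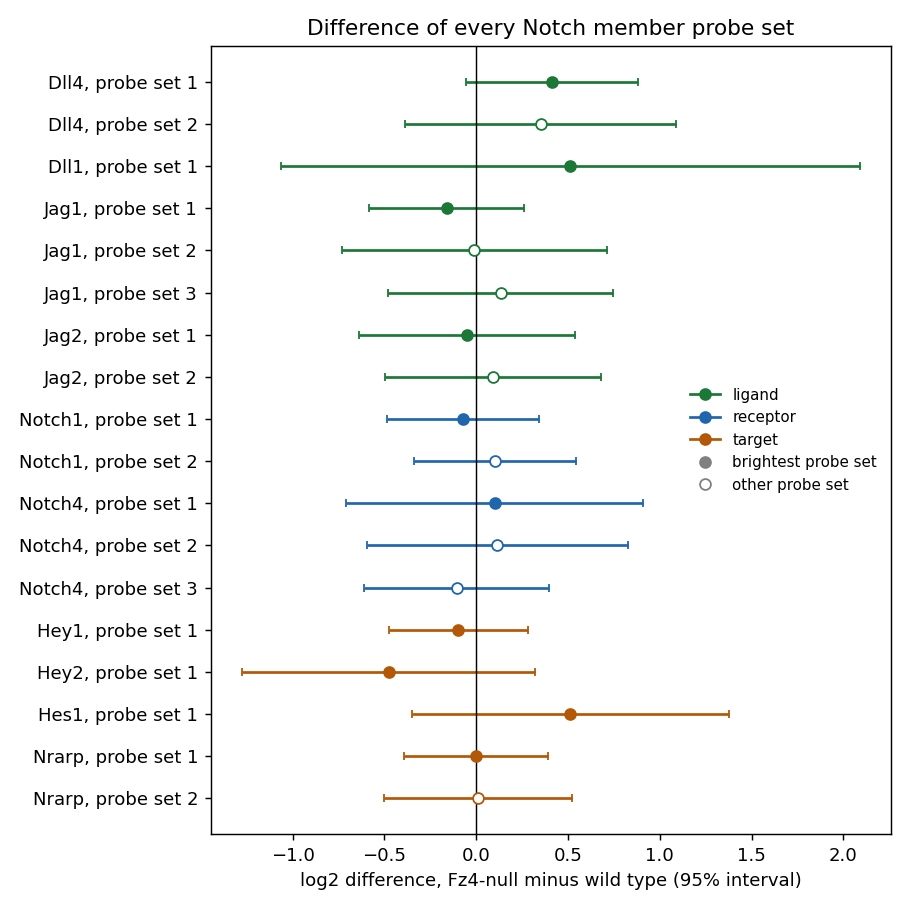
Log2 difference (Fz4-null minus wild type, horizontal axis) of each of the 18 member probe sets with its 95% interval from limma; filled points are the brightest probe set of a gene. Every interval includes 0, and the widest belongs to Dll1 (-1.06 to 2.09).

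Dll4, the tip-cell ligand of endothelial Notch signalling, had the lowest p of the members. Its brightest probe set read 9.62, 9.62 and 9.33 on Fz4-null arrays 1 to 3, against 8.95, 9.37 and 9.02 on wild-type arrays 1 to 3. The lowest null array lay just under the highest wild-type array, so the groups overlapped. The means were 9.52 ± 0.17 in null cells and 9.11 ± 0.22 in wild-type cells (SD, n = 3), a difference of 0.41 (SE 0.20, 95% interval -0.06 to 0.88, limma adjusted p = 1.00). On the linear scale this is a ratio of 1.33 with an interval of 0.961 to 1.84. The other Dll4 probe set gave a difference of 0.35 (SE 0.31) with an interval of -0.39 to 1.09. Centred on 21 pan-endothelial genes, the brightest probe set read 0.19 (SE 0.22, interval -0.32 to 0.71).

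The other Delta ligand, Dll1, varied most among the arrays. It read 9.91, 9.39 and 8.23 on Fz4-null arrays 1 to 3, against 9.24, 9.44 and 7.31 on wild-type arrays 1 to 3. The arrays numbered 3 were the lowest of each genotype. The difference between genotypes was 0.51 (SE 0.66), its interval of -1.06 to 2.09 is the widest of all members, and without wild-type replicate 3 the value was -0.16. Centred on pan-endothelial genes it was 0.29 (SE 0.67).

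The Jagged ligands, which carry a longer extracellular part than the Delta ligands, had intervals that include 0 on all 5 probe sets. Jag1 read 11.82, 11.90 and 11.66 on Fz4-null arrays, against 12.07, 12.01 and 11.77 on wild-type arrays, a difference of -0.16 (SE 0.18, interval -0.58 to 0.26). The 2 dimmer Jag1 probe sets read -0.009 and 0.13, so the probe sets disagree in sign and each interval includes 0. Jag2 read 11.91, 11.64 and 11.08 on Fz4-null arrays, against 11.62, 11.68 and 11.47 on wild-type arrays. The null arrays spread around the wild-type values on both sides, with a difference of -0.05 (SE 0.25, interval -0.64 to 0.54), and the other Jag2 probe set read 0.09. Without null replicate 3 the brightest Jag2 probe set read 0.18.

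Notch1, the receptor through which Dll4 restrains sprouting, was among the most tightly bounded members. It read 12.25, 12.49 and 12.29 on Fz4-null arrays, against 12.37, 12.56 and 12.32 on wild-type arrays. The 2 genotypes interleave, and the difference was -0.07 (SE 0.17) with an interval of -0.48 to 0.34, or a ratio between 0.715 and 1.27 (0.582 to 1.15 centred on pan-endothelial genes). The dimmer Notch1 probe set read 0.10 (interval -0.34 to 0.54).

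Notch4, a receptor found mainly in endothelium, read 11.28, 10.98 and 11.77 on Fz4-null arrays, against 10.91, 10.93 and 11.89 on wild-type arrays. The arrays numbered 3 were the highest of both genotypes, and the difference between genotypes was 0.10 (SE 0.34, interval -0.71 to 0.91). A second probe set gave 0.11 (SE 0.30) and the same order of arrays. The third Notch4 probe set averaged 1.82 in null cells and 1.93 in wild-type cells, below the arrays' lower quartiles of 3.46 to 3.64, a level at which signal and background cannot be told apart. The Notch4 value was below 0 when null array 3, wild-type array 1 or wild-type array 2 was left out (-0.11 to -0.06).

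Among the target genes, Hes1 and Hey2 had the larger differences and opposite signs. Hes1, a repressor that also responds to signals other than Notch, read 11.28, 11.06 and 10.35 on Fz4-null arrays, against 10.74, 10.67 and 9.74 on wild-type arrays. The arrays numbered 3 were the lowest of each genotype. The genotypes overlapped because null array 3 (10.35) lay below the wild-type values of 10.74 and 10.67, whereas wild-type array 3 (9.74) lay below every null array. The means were 10.89 ± 0.49 in null cells and 10.38 ± 0.56 in wild-type cells (SD, n = 3), a difference of 0.51 (SE 0.36, interval -0.35 to 1.38, limma adjusted p = 1.00). The value was 0.19 without wild-type replicate 3 and 0.79 without null replicate 3, and 0.30 (SE 0.38) centred on pan-endothelial genes.

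Hey2, a repressor linked to arterial identity, whose promoter stretch above held the RBPJ core matches, read 8.46, 9.45 and 8.86 on Fz4-null arrays, against 9.66, 9.67 and 8.88 on wild-type arrays. Null replicate 1 was the lowest array, and wild-type replicate 3 lay with the null arrays. The means were 8.92 ± 0.50 in null cells and 9.40 ± 0.45 in wild-type cells (SD, n = 3), a difference of -0.48 (SE 0.34, interval -1.28 to 0.32). Without null replicate 1 the value was -0.24, and without null replicate 2 or wild-type replicate 3 it was -0.74.

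Hey1 and Nrarp had the narrowest spread of the targets. Hey1, a repressor induced directly by Notch, read 12.35, 12.25 and 12.20 on Fz4-null arrays, against 12.34, 12.38 and 12.38 on wild-type arrays. Null replicate 1 lay among the wild-type arrays and the other null arrays below them, and the difference was -0.10 (SE 0.16, interval -0.47 to 0.28). Nrarp, the feedback inhibitor, read 11.04, 11.16 and 11.08 on Fz4-null arrays, against 11.17, 11.16 and 10.96 on wild-type arrays. Both genotypes averaged 11.09 (difference below 0.01, SE 0.17, interval -0.39 to 0.39), and the other Nrarp probe set read 0.008 (SE 0.22). On the deposited scale the intervals are a ratio of 0.720 to 1.21 for Hey1 and 0.762 to 1.31 for Nrarp. Centred on 21 pan-endothelial genes they are 0.606 to 1.07 for Hey1 and 0.622 to 1.19 for Nrarp.

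For most members the array numbered 3 differed from arrays 1 and 2 in the same direction in both genotypes. The array numbered 3 lay below the mean of arrays 1 and 2 in both genotypes for 8 of the 10 genes, above it in both for Notch4, and on different sides for Hey1. It lay below in both for 35.7% of all genes. Dll1 on array 3 was lower than that mean by -1.42 in null cells and -2.03 in wild-type cells, and Hes1 by -0.82 and -0.97. Notch4 ran the other way in both genotypes, at 0.63 in null cells and 0.97 in wild-type cells. The gap of the arrays numbered 3, averaged over the genotypes, exceeded the size of the genotype difference for 7 of 10 genes and for 67.4% of all genes. The share to be found without any effect of the number was not tested. The labels do not say what the number stands for.

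The arrays were also compared within each replicate number, although the matching of numbers 1 and 2 across genotypes is uncertain. By that comparison Dll4 and Hes1 were higher on the null array of all 3 numbers. Dll4 differed by 0.67, 0.26 and 0.31 for numbers 1 to 3, and Hes1 by 0.54, 0.39 and 0.61. In all, 2 of 10 genes were higher on the null array of every number, where 17.6% of all genes were. Jag1 (-0.25, -0.11 and -0.12), Notch1 (-0.12, -0.06 and -0.03) and Hey2 (-1.21, -0.21 and -0.02) were lower on the null array of every number, 3 of 10 genes against 15.7% of all genes. Signs were mixed for the other 5 genes. They were also mixed for the dimmer Notch1 probe set (-0.04, 0.23 and 0.11) and for both dimmer Jag1 probe sets. Over probe sets, 3 of 18 were higher and 3 of 18 lower on the null array of every number. These counts are near the 15.5% and 16.2% of all probe sets. With the replicate number as a block in limma, 0 of 18 member probe sets passed, where 0 of 45037 probe sets passed. The lowest unadjusted p of a member in that fit was 0.0173 for Hes1 (adjusted p = 0.525). An unadjusted p under 0.05 was reached by 1 of 18 member probe sets and by 3917 of 45037 probe sets.

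**Figure D3:**
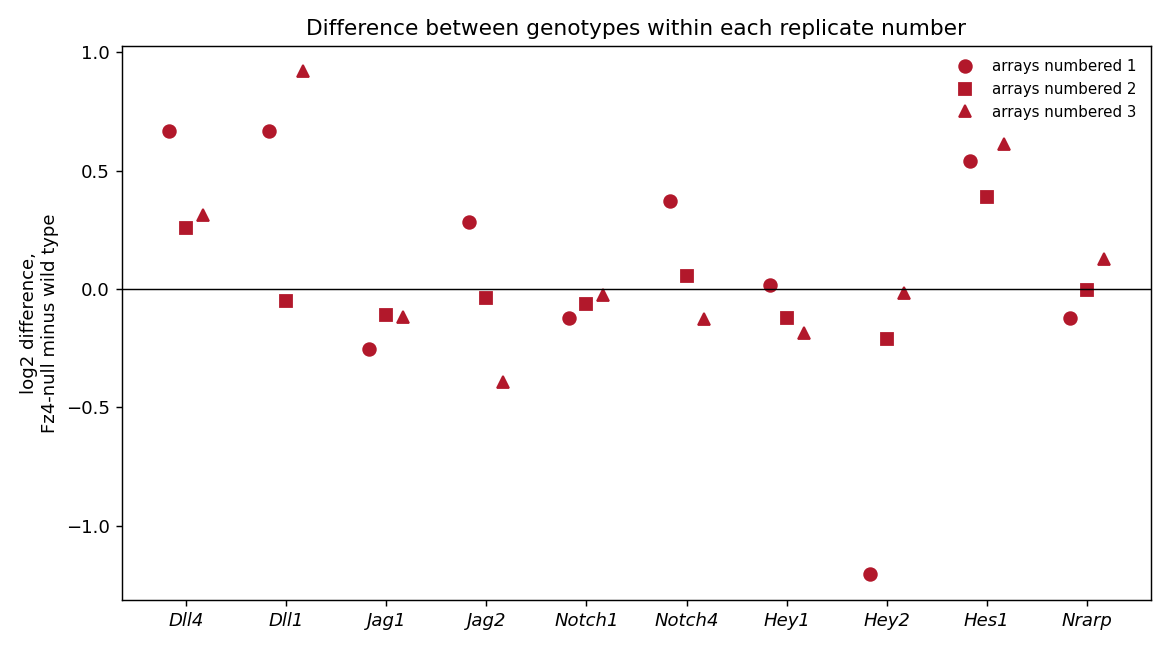
Log2 difference (Fz4-null minus wild type, vertical axis) between the arrays of the same replicate number for the 10 Notch genes, brightest probe set. Dll4 and Hes1 lie above 0 for all 3 numbers, as did 17.6% of all genes, whereas Hey2 ranges between -1.21 and -0.02. The matching of numbers 1 and 2 across genotypes is uncertain.

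The rest of the pathway, listed by role, held 80 genes, of which 75 were measured, and 0 passed the limma threshold, where 0.022% of all genes passed. At an unadjusted p under 0.05 there were 3 of 75, against 4.6% of all genes. The groups did not overlap for 7 of 75 genes, against 9.54% of all genes. The median difference was 0.09 over the 75 genes and 0.01 over all genes. Of the 75 genes, 48 were higher and 27 lower, where 9333 of all 18193 genes were higher and 8860 lower. These differences are on the deposited scale, on which the mean of 21 pan-endothelial genes differed by 0.22.

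The genes that modify, cut and transduce the receptor had median differences between 0.04 and 0.19 by role. Receptor-cleavage genes (8 measured), which include the ADAM proteases and the gamma-secretase subunits, had differences between -0.21 and 0.51, with a median of 0.04. Their lowest p belonged to Ncstn, a gamma-secretase subunit (0.51, SE 0.39, unadjusted p = 0.233). The nuclear complex (7 measured) lay between -0.05 and 0.24, with Rbpj itself at -0.05 (SE 0.45) and the coactivator Maml1 at 0.20 (SE 0.16, unadjusted p = 0.271). Maml1 read 10.13, 10.13 and 10.30 on Fz4-null arrays, all above its 9.95, 9.93 and 10.09 on wild-type arrays. The glycosylation genes (5 measured), which tune the receptor's choice of ligand, had a median of 0.19, led by the Fringe gene Lfng at 0.36 (SE 0.27). Among nuclear repressors (9 measured) the lowest p belonged to the Groucho-type corepressor Tle2 (0.60, SE 0.29, unadjusted p = 0.0752). Its values of 4.52 to 5.47 in null cells and 4.13 to 4.67 in wild-type cells lie below the array medians of 5.52 to 5.58.

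The 3 genes of the wider list with an unadjusted p under 0.05 had different roles. Epn1, an epsin that helps internalise ligands, read 7.74, 7.66 and 7.50 on Fz4-null arrays, all above its 7.23, 7.17 and 7.30 on wild-type arrays (difference 0.40, SE 0.17, unadjusted p = 0.0477). Cntn1, a neural cell-adhesion molecule reported to bind Notch, read 4.91, 6.73 and 6.01 on Fz4-null arrays, against 6.45, 7.33 and 7.58 on wild-type arrays (difference -1.24, SE 0.51, unadjusted p = 0.0459). Acvrl1, the endothelial BMP receptor Alk1, read 11.15, 11.33 and 11.16 on Fz4-null arrays, all above its 11.02, 10.20 and 10.33 on wild-type arrays (difference 0.70, SE 0.25, unadjusted p = 0.0291). Each had a limma adjusted p of 1.00.

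The other receptors, Notch2 and Notch3, read -0.30 (SE 0.22) and -0.59 (SE 0.37). Notch3, the receptor of mural cells, read 10.72, 12.08 and 11.80 on Fz4-null arrays, against 12.30, 12.26 and 11.83 on wild-type arrays, so null replicate 1 stood apart. Of the other Hes and Hey genes, Hes5 read 4.70, 4.81 and 5.21 on Fz4-null arrays, all above its 4.60, 4.35 and 4.48 on wild-type arrays (difference 0.43, SE 0.20, unadjusted p = 0.0711). All of these Hes5 values lie below the array medians of 5.52 to 5.58. Arterial genes placed downstream of endothelial Notch (10 measured) had a median difference of 0.11. Efnb2, the arterial ephrin ligand, read 0.09 (SE 0.18), and the connexin gene Gja5 read -0.99 (SE 0.46) with values of 3.05 to 4.42 in null cells and 3.83 to 5.09 in wild-type cells. Every Gja5 value lies below the array medians. Null arrays 2 and 3 (3.37 and 3.05) lie below their lower quartiles, where signal and background cannot be told apart. The secreted modulator Egfl7, an endothelial factor that can act on Notch, read 0.49 (SE 0.29), and the receptor-turnover gene Numbl read 0.42 (SE 0.27).

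**Figure D4:**
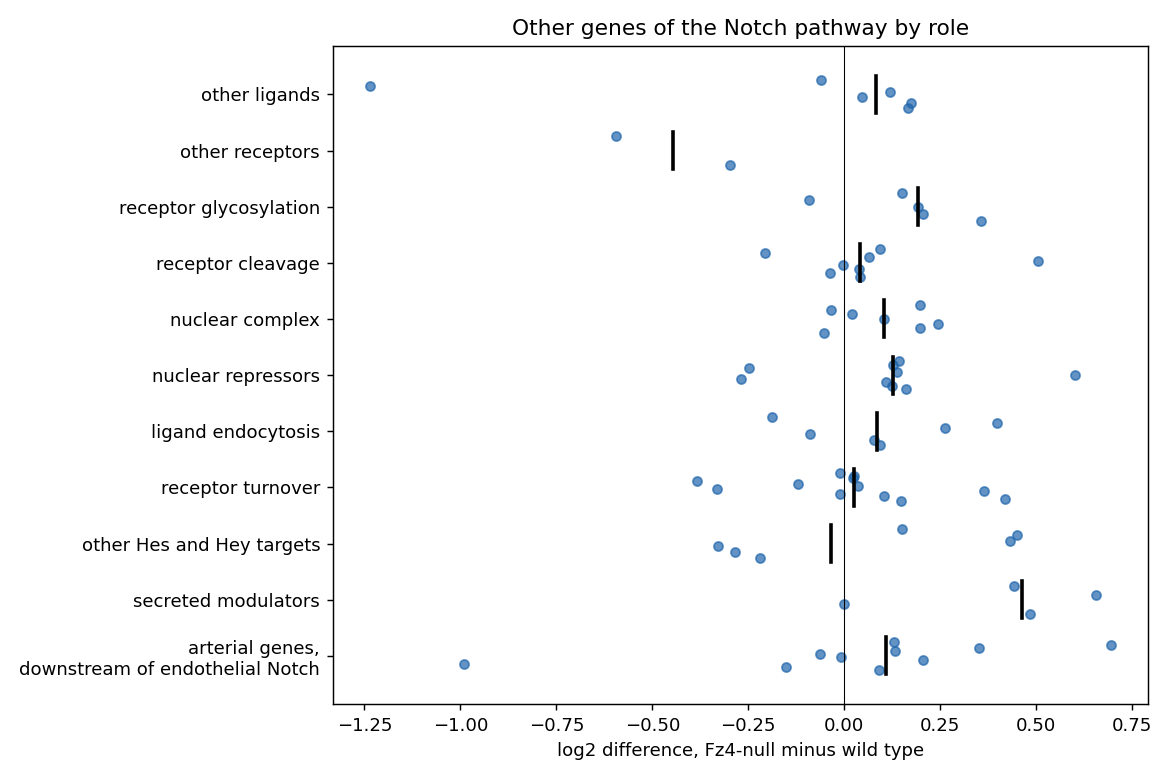
Log2 difference (Fz4-null minus wild type, horizontal axis) of the 75 other measured Notch pathway genes by role (1 point per gene, bar at the median of the role). Role medians range between -0.45 for the other receptors and 0.46 for the secreted modulators, and no gene passed the threshold.

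The targeted gene and the cell markers give the frame for these values. Fzd4 was lower in all 3 null arrays on all 3 of its probe sets, with the brightest at 3.69 ± 0.56 in null cells and 10.63 ± 0.37 in wild-type cells (SD, n = 3). Only the brightest passed the threshold (limma adjusted p = 0.0096). The second differed by -4.95 (SE 0.43, limma adjusted p = 0.0769), so a difference of that size went uncalled. The dimmest differed by -1.74 (limma adjusted p = 0.850). It averaged 1.78 in null cells, below the arrays' lower quartiles, where signal and background cannot be told apart. Endothelial markers were high on every array, with the mean of 21 pan-endothelial genes at 11.54 to 11.71 in null cells and 11.35 to 11.48 in wild-type cells, a difference of 0.22, with 17 of 21 higher and 4 lower. Pecam1 read 11.56 ± 0.18 in null cells and 11.13 ± 0.19 in wild-type cells, and Cdh5 read 11.62 ± 0.43 in null cells and 11.18 ± 0.39 in wild-type cells (SD, n = 3), whereas Flt1 differed by -0.13, Tek by -0.07 and Cldn5 by -0.01. When every array was centred on these 21 genes, the median of all probe sets moved by -0.22. On that scale Dll4 read 0.19, Hes1 read 0.30, Hey1 read -0.31, Notch1 read -0.29 and Hey2 read -0.70. The threshold was passed by 0 of 18 member probe sets and by 7 of 45037 probe sets.

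Markers of other cell types were present, which bears on Notch genes because mural cells and glia express several of them. Null replicate 1 was low in most of these lists. The 12 pericyte and smooth muscle genes, Notch3 among them, averaged 8.91 to 10.19 in null cells and 9.87 to 10.24 in wild-type cells, with 10 of 12 lower. The 12 astrocyte and Bergmann glia genes averaged 6.77 to 8.56 in null cells and 8.004 to 8.76 in wild-type cells, with 10 of 12 lower. The lowest value of each range is null replicate 1. Pdgfrb, a defining pericyte gene, read 8.74, 11.25 and 11.43 on Fz4-null arrays, against 10.64, 10.80 and 11.57 on wild-type arrays, and the water channel Aqp4 of astrocytes read 7.21, 9.04 and 9.36 on Fz4-null arrays, against 9.13, 9.77 and 10.06 on wild-type arrays. All 12 microglia and macrophage genes had lower means in null cells, the list averaging 5.21, 8.15 and 7.96 on Fz4-null arrays, against 7.99, 8.12 and 7.98 on wild-type arrays. Without null replicate 1 that list differed by 0.03, with 6 of 12 genes lower. All 10 fibroblast genes also had lower means, the list averaging 7.06, 10.16 and 9.05 on Fz4-null arrays, against 9.62, 9.61 and 9.96 on wild-type arrays, and differing by -0.13 without null replicate 1, with 7 of 10 lower. The mural and glial lists differed by 0.08 and 0.14 without it. All 9 choroid plexus genes were lower in mean (4.76 to 5.34 in null cells and 5.76 to 8.23 in wild-type cells, where replicate 3 was the highest), at -1.39 without null replicate 1 and with 9 of 9 still lower. The 7 platelet genes averaged 5.24 to 5.63 in null cells and 5.90 to 5.98 in wild-type cells, with 6 of 7 lower. Without null replicate 1 that list differed by -0.40, with 7 of 7 lower. The granule neuron, Purkinje cell, oligodendrocyte and red cell lists overlapped between genotypes. The part of these cells in the Notch values was not tested, and in bulk samples fewer cells of a type and less RNA per cell cannot be told apart. Without null replicate 1 the members read between -0.24 (Hey2) and 0.36 (Dll4), with 0 past the threshold, where 1 of 45037 probe sets passed.

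**Figure D5:**
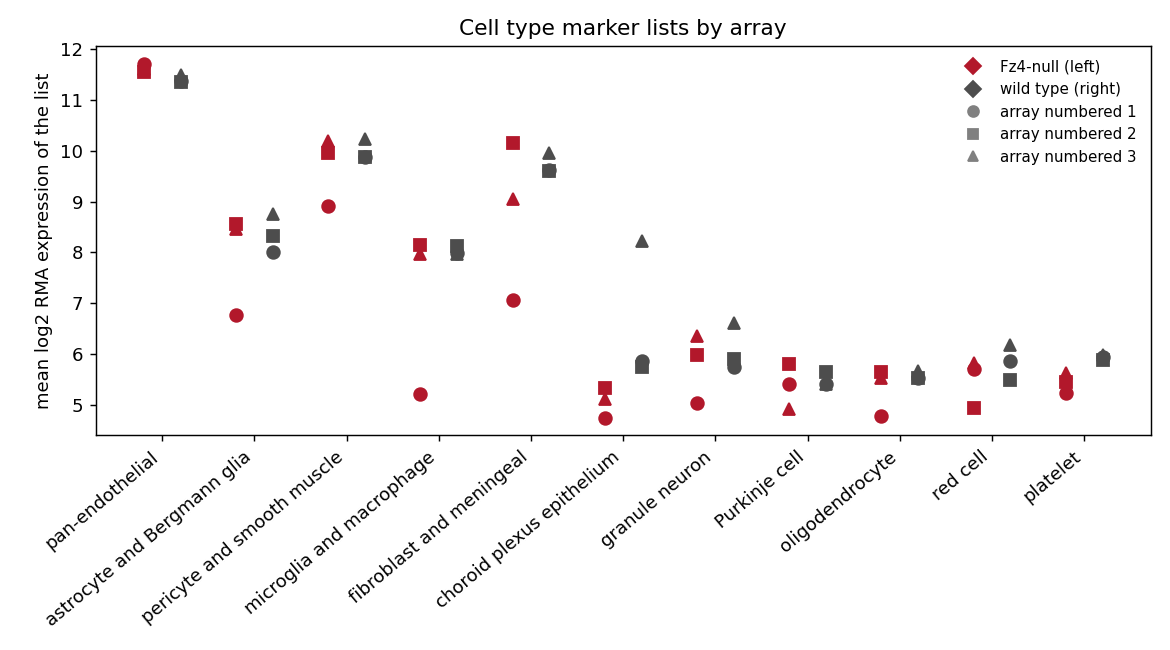
Mean log2 RMA expression of each cell type marker list (vertical axis) on the Fz4-null arrays (left of each pair) and the wild-type arrays (right); marker shapes give the replicate number. Null replicate 1 is the lowest array for glial, mural, microglial and fibroblast lists, while pan-endothelial means lie between 11.35 and 11.71 on all arrays.

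Likeness to Dll4, the member with the lowest p, was measured as the root mean square distance between array profiles centred on their own means, over 6 arrays and 13912 genes that spanned at least 0.8 of its range. The 5 closest genes were Tmem79 (0.067), Wrap73 (0.073), Camta2 (0.075), Grip1os1 (0.079) and Trappc6a (0.083). Grip1os1 read 2.02 to 2.74 on the arrays, below their lower quartiles, where signal and background cannot be told apart. Among the other members that met the span, the closest was Jag2, ranked 1911 at 0.30, and the farthest was Dll1, ranked 12437 at 0.75.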

How the data were processed

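Total RNA was extracted with Trizol and RNeasy and labelled with biotin, per the labels' protocols. The authors deposited log2 values, and the submitters' processing notes name RMA as the method without an implementation or version. RMA corrects background, normalizes arrays and summarises probe sets, and it compresses differences near background. Of 45101 probe sets, 64 Affymetrix controls were left out. Platform annotation gave 34945 probe sets 1 symbol, 932 several and 9160 none, and all 10 member symbols matched RefSeq. At most 0.351% of values were identical between any 2 arrays.

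Differences were fitted in R 4.3.3 by limma 3.58.1 (lmFit, then eBayes, 6 arrays, no covariate, two-sided, Benjamini-Hochberg over 45037 probe sets at 0.05), tested on simulated data. Each gene was represented by the probe set of highest mean. Depth does not apply to arrays, whose number limits the precision. The members and lists were chosen with earlier results of these data known. Named genes were Fzd4, all members, the lowest p of each role, the 5 profiles closest to the member with the lowest p, and defining markers. Others (Rbpj, Notch2, Efnb2, Gja5, Flt1, Tek and Cldn5) were named after their values were seen. Deviations from group means correlated at 0.244, 0.303 and 0.574 between arrays of the same number, all above the pairing minimum of 0.1. Null replicate 2 also correlated at 0.262 with wild-type replicate 1, and null replicate 1 at 0.124 with wild-type replicate 2. By this measure numbers 1 and 2 cannot be told apart, so their matching across genotypes is uncertain. The block was an alternative. Other alternatives were normalization, centring on pan-endothelial genes, level filters, variance models, array weights, probe set choice, thresholds and each array left out. A batch term for the arrays numbered 3 and the marker lists without null replicate 1 were added after seeing the data.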

Additional observations from a re-analysis of the deposited data

How the results depend on the processing

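No member and no gene of the wider Notch list passed the threshold under any of the 22 alternatives run, so their count was 0 throughout. The number of probe sets past the threshold over the whole table, 5 as reported, was 21 with array weights, 11 genes with probe sets averaged per gene, 2 with a batch term for the arrays numbered 3, 1 at an adjusted p of 0.01 and 8 at 0.1. It was 0 with the unmoderated statistic (2126 at an unadjusted p under 0.05), 0 with the replicate block (3917), 0 without both arrays numbered 3 (3580), and 0 to 2 with 1 array left out (1329 to 3510). The cause of these changes was not tested. With the replicate block the lowest adjusted p of a member was 0.525 (Hes1, 0.51, SE 0.14), it changed no call of a member, and with the batch term it was 0.462.

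None of the 22 alternatives turned the direction of Dll4, Hes1, Hey1, Hey2 or Jag1. Their ranges were 0.19 to 0.54, 0.19 to 0.79, -0.31 to -0.05, -0.74 to -0.24 and -0.38 to -0.01, in that order. Several alternatives could not turn it, because they leave a member's difference as it was. These were the level filters, the variance models, the thresholds, the replicate block and the batch term. Dropping less specific probe sets also left these values unchanged. Direction was therefore tested only by normalization, centring, array weights, averaging of probe sets and arrays left out. The sign turned under some alternatives for Nrarp, Notch4, Jag2, Notch1 and Dll1. Nrarp read -0.010 with quantile normalization, -0.028 with cyclic loess, -0.22 centred on pan-endothelial genes, -0.045 with array weights and -0.064 without both arrays numbered 3, and -0.069 to 0.035 with 1 array left out. Notch4 read -0.12 centred on pan-endothelial genes and -0.11 to 0.42 with 1 array left out. With probe sets averaged per gene, Jag2 read 0.021 and Notch1 0.015; Jag2 read 0.12 without both arrays numbered 3 and -0.23 to 0.18 with 1 array left out, and Dll1 read -0.16 to 0.99 with 1 array left out. The 3 arrays per genotype leave intervals that reach beyond a 2-fold difference between genotypes for Dll1, Hes1 and Hey2 (brightest probe sets).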

Other observations

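Within-array differences between members were examined after their values were seen. Dll4 minus Jag1 (brightest probe sets) was -2.19, -2.27 and -2.33 on Fz4-null arrays, against -3.11, -2.64 and -2.76 on wild-type arrays, so the groups did not overlap. The means differed by 0.57. Dll4 against the other 9 members gave 6 pairs whose groups did not overlap, where Dll4 against every other gene gave 29.5%. Over all 45 member pairs the number was 10, where 10.2% of all gene pairs did not overlap, and the 10 include Hey2 minus Hes1, at -2.82, -1.61 and -1.48 on Fz4-null arrays against -1.08, -1.01 and -0.86 on wild-type arrays. Hes1 against every other gene gave 14.3% and Hey2 6.98%. With the other probe sets of Dll4 and Jag1 taken in turn, 1 of 6 combinations did not overlap, the brightest pair. These values describe unequal differences within arrays and were not adjusted for the number of pairs examined.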
